A study of Mus musculus with 6 samples.

Results

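Wnt proteins are secreted, lipid-modified signals that act over short distances between neighbouring cells. They bind frizzled receptors on the cell surface, and the co-receptors Lrp5 and Lrp6 join them in the branch that stabilizes beta-catenin, whereas other branches act through cell polarity or calcium. R-spondins, through the receptors Lgr4 to Lgr6, protect frizzleds from removal, and 2 kinds of secreted antagonists act against them: the Sfrp proteins, Frzb and Wif1 bind the ligands themselves, while dickkopf proteins act mainly on the co-receptors.

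The genes of this system were followed in stromal cells grown from the lungs of MMTV-PyMT mice (lung mesenchymal stromal cells, LMSCs), in which a viral promoter drives the polyoma middle T oncogene in mammary epithelium and tumors later spread to the lung. These cells were taken from digested lungs by adherence to plastic, freed of CD45-positive blood cells with magnetic beads and sequenced at passage 3. The 3 groups were A-LMSCs from the adenoma stage (mice of 6-7 weeks), PM-LMSCs from the pre-metastatic stage (9-10 weeks) and M-LMSCs from the metastatic stage (13-14 weeks), with 2 libraries each. Ages are those of the labels, and the study's text gives older mice for the first 2 groups. Stage and age went together, so a difference between groups belongs to both. Members were taken by gene name: 19 Wnt ligands, 10 frizzleds, Lrp5 and Lrp6, 4 R-spondins, 3 Lgr receptors, 6 antagonists that bind Wnts, 4 dickkopfs and Axin2, a feedback inhibitor that beta-catenin itself switches on. These made 49 of the 34745 genes in the table.

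Receptor RNA was more abundant than ligand RNA in LMSCs at all 3 stages. Levels are in FPKM, fragments per kilobase of transcript scaled to depth, which allows only a rough comparison between genes and between libraries. A mean of 1 FPKM or more over the 6 libraries was reached by 23 members: 6 ligands, 7 frizzleds, both co-receptors, 2 R-spondins, 2 Lgr receptors, 2 Wnt-binding antagonists and 2 dickkopfs. The other 26 were under 1 FPKM, and 5 of them were listed at 0 in all libraries, namely Wnt3, Wnt8a, Wnt8b, Sfrp5 and Dkk4. A listed 0 need not mean that no RNA was present, since the mitochondrial gene mt-Co2 was also listed at 0 in all 6 libraries while mt-Co1 stood at 2788 to 4219 FPKM. The most abundant members were the antagonist Sfrp1 (41.1 to 108 FPKM), the receptor Fzd2 (44.4 to 58.7), Rspo3 (30.0 to 38.3) and Fzd7 (26.2 to 38.3). When the members were ordered by mean level, the ranges of neighbours were apart in only 2 of 22 pairs, Fzd2 above Rspo3 and Fzd1 above Dkk3, so most ranks were not settled.

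**Figure D1:**
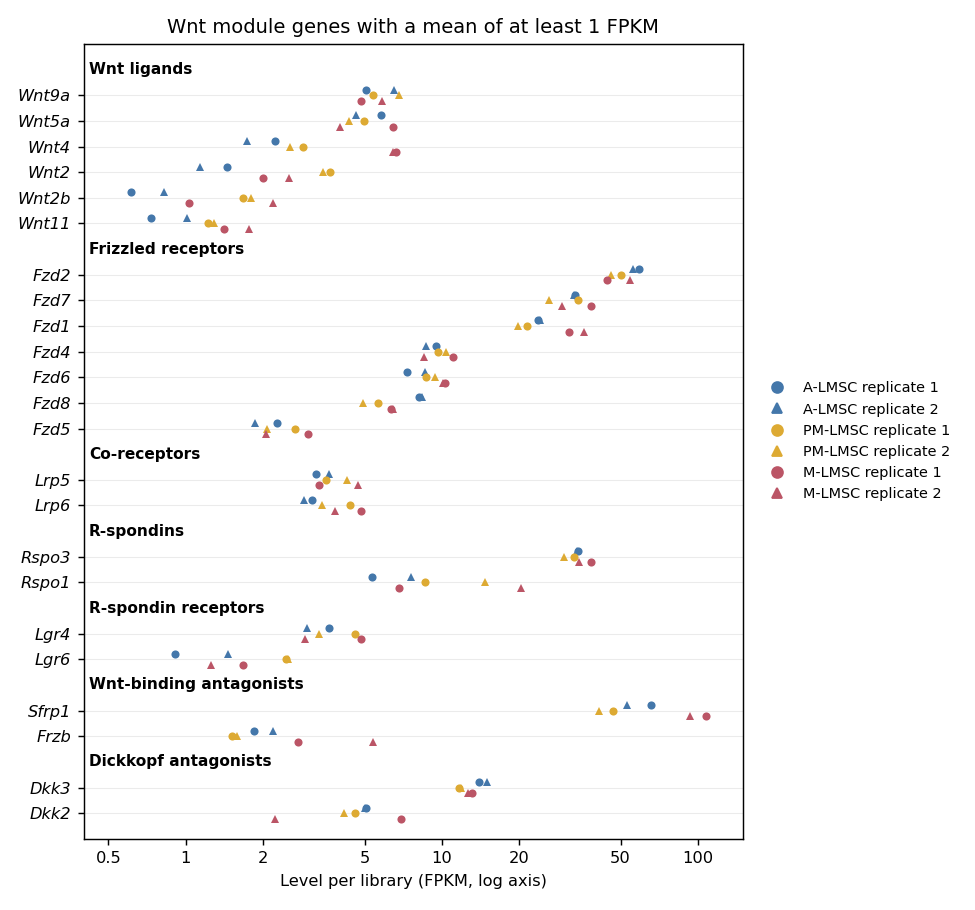
The 23 members whose mean reached 1 FPKM, grouped by role; the horizontal axis is FPKM on a log scale, and each point is 1 library coloured by stage (n = 2). Sfrp1 reached 108 FPKM and Wnt2b was as low as 0.612.

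Sequencing depth, estimated from the spacing of low values, was 20.75 and 17.55 M fragments in A-LMSCs, 14.75 and 15.65 M in PM-LMSCs and 16.60 and 16.55 M in M-LMSCs. At these depths 1 FPKM on a transcript of 1 kilobase is about 15 to 21 fragments. Stages were compared with limma on log2(FPKM + 1) over the 10279 genes whose mean reached 1 FPKM. A gene was called at a Benjamini-Hochberg adjusted p below 0.05 over all of them. Because 1 is added, log2 fold changes of genes at low levels, such as Wnt4, Wnt2 and Wnt2b, understate the ratio of means. Libraries with the same replicate number deviated together. Values from a limma fit with that number as a block are therefore given wherever they change a call on a member or a listed Wnt pathway gene. For some cell type markers only the number of calls with the block is given. The 3 comparisons that use A-LMSCs share the same 2 libraries and are not independent of each other.

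Between the adenoma and the metastatic stage limma called 7 genes, 4 higher and 3 lower in M-LMSCs, and 1 of the 23 members, Wnt4, was among them. That was against 0.0681% of all tested genes. With the replicate block limma called 403 genes (234 higher, 169 lower), or 3.92%, and 2 members, Wnt4 and Sfrp1, both higher. The split hung on single libraries: without M-LMSC replicate 1 limma called 62 genes higher and 23 lower, without M-LMSC replicate 2 it called 29 higher and 61 lower, and without either PM-LMSC library it called 1. Both M-LMSC libraries lay above both A-LMSC libraries in 10 of the 23 tested members and below in 3, beside 27.1% and 24.4% of all tested genes. Among these 10 are Wnt2b and Wnt11, with A-LMSC means of 0.720 and 0.873 FPKM. Both passed the filter of 1 FPKM only through the later stages, so their being higher there decided that they were tested. An unadjusted p below 0.05 was reached by 10 members, beside 14.6% of all genes.

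From the adenoma to the pre-metastatic stage limma called 4 genes (3 higher, 1 lower), 0.0389% of those tested, and 0 members, with 7 members at an unadjusted p below 0.05 against 6.53% of all genes. The block raised this to 30 genes (27 higher, 3 lower), 0.292%, and 1 member, Wnt2. Leaving out M-LMSC replicate 1 gave 28 genes (20 higher, 8 lower), M-LMSC replicate 2 gave 26 (19 higher, 7 lower), and either A-LMSC library 2 and either PM-LMSC library 1. Both PM-LMSC libraries were above both A-LMSC libraries for 9 of the 23 tested members and below for 8, where all tested genes gave 19.6% and 19.7%. Wnt2b and Wnt11, tested only through their later levels, are among the 9. Between M-LMSCs and PM-LMSCs limma called 3 genes (2 higher, 1 lower in M-LMSCs), 0.0292%, and 0 members, with 6 members at an unadjusted p below 0.05 against 8.94% of all genes. With the block these became 43 genes (28 higher, 15 lower), 0.418%, and 2 members, Sfrp1 and Wnt4. Without M-LMSC replicate 1 they were 8 genes higher and 10 lower, and without M-LMSC replicate 2 they were 10 higher and 15 lower. In that comparison 9 of the 23 tested members had both M-LMSC libraries above both PM-LMSC libraries and 2 had them below, and all tested genes gave 17.8% and 16.7%.

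Taking the mean of PM-LMSCs and M-LMSCs against A-LMSCs, limma called 13 genes (9 higher, 4 lower), 0.126% of those tested, and 0 members, with 8 members at an unadjusted p below 0.05 against 11.2% of all genes. The block gave 211 genes (137 higher, 74 lower), 2.05%, and 2 members, Wnt4 and Wnt2, both higher in the later stages. Without M-LMSC replicate 1 limma called 71 genes higher and 22 lower, without M-LMSC replicate 2 it called 27 higher and 28 lower, without either A-LMSC library 2 genes and without either PM-LMSC library 0. All 4 later libraries were above both A-LMSC libraries for 6 of the 23 tested members (Wnt4, Wnt2, Wnt2b, Wnt11, Fzd6 and Lrp6) and below for 3 (Fzd2, Fzd8 and Dkk3), beside 10.7% and 10.7% of all tested genes. Wnt2b and Wnt11, with A-LMSC means under 1 FPKM, were tested only through these later libraries, so the balance of 6 to 3 partly follows from the filter. Both also count in the values that follow. The median log2 fold change of the 23 members was 0.17, against 0.02 for all genes tested, and 15 of the 23 were above 0, against 53.4% of all genes.

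Wnt4, a ligand needed for kidney and reproductive tract development, stood out among the ligands. It stood at 2.23 and 1.74 FPKM in A-LMSCs, 2.89 and 2.55 in PM-LMSCs and 6.66 and 6.45 in M-LMSCs, from an estimated 128 to 464 fragments per library. Both M-LMSC libraries were thus far above the other 4, and the PM-LMSC libraries also lay above both A-LMSC libraries. Means were 1.99 ± 0.344, 2.72 ± 0.238 and 6.56 ± 0.146 FPKM (SD, n = 2), so the metastatic level was 3.30-fold the adenoma level and 2.41-fold the pre-metastatic level. From A-LMSCs to M-LMSCs Wnt4 rose by a log2 fold change of 1.34 (standard error 0.13, limma adjusted p = 0.0412, 0.00955 with the block). Libraries of the same number differed by 1.25 and 1.44, and over all alternatives the change ran from 1.23 to 1.68. Against PM-LMSCs the log2 fold change was 1.02 (limma adjusted p = 0.0961, 0.0317 with the block). For both later stages against A-LMSCs it was 0.83 (limma adjusted p = 0.109, 0.0175 with the block). When any library was left out, these fold changes ran from 0.96 to 1.09 and from 0.71 to 0.95. The call over both later stages also appeared without M-LMSC replicate 1, which leaves that stage with 1 library.

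The call on Wnt4 between A-LMSCs and M-LMSCs was lost in 7 of 12 alternative settings, with limma adjusted p values from 0.00955 to 0.348 over all 12. It was lost without A-LMSC replicate 1 (0.122) or 2 (0.348), without PM-LMSC replicate 1 (0.119) or 2 (0.120), with a pseudocount of 0.1 (0.0519), with no filter (0.119) and with only the 2 stages in the fit (0.121), while the log2 fold change stayed at 1.23 or more when any library was left out. In RNA from whole cultures, a larger share of cells that make a transcript and more transcript per cell cannot be told apart. Wnt4 is ENSMUSG00000036856 at chr4:137277489-137299726 on the plus strand of GRCm38.

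Wnt2 and Wnt2b, which together specify the lung in the embryo, had all 4 later libraries above both A-LMSC libraries. Wnt2 measured 1.45 and 1.14 FPKM in A-LMSCs, 3.66 and 3.43 in PM-LMSCs and 2.01 and 2.54 in M-LMSCs, so the 3 stages did not overlap and the pre-metastatic stage was highest. Its PM-LMSC mean was 2.74-fold and its M-LMSC mean 1.76-fold the A-LMSC mean. The log2 fold change was 0.99 in PM-LMSCs (standard error 0.14, limma adjusted p = 0.215, 0.0497 with the block) and 0.75 over both later stages (0.129, 0.0342 with the block, 0.0415 without M-LMSC replicate 1), whereas M-LMSCs alone were not called (0.51, 0.183). Over all alternatives the first 2 adjusted p values ran from 0.0497 to 1.00 and from 0.0342 to 0.973. Wnt2b was at 0.612 and 0.828, 1.68 and 1.80, and 1.03 and 2.20 FPKM in the same order. With all libraries Wnt2b was called neither in PM-LMSCs (limma adjusted p = 0.571) nor in M-LMSCs (0.296) nor over both later stages (0.290). Over both later stages its log2 fold change was 0.62, and 0.46 to 0.79 when any library was left out. A call there appeared only without M-LMSC replicate 1, which leaves that stage with 1 library. Its A-LMSC mean was 0.720 FPKM, so Wnt2b passed the filter only through the later stages. Its comparisons with A-LMSCs are therefore no independent evidence of a rise. Wnt2 is ENSMUSG00000010797 at chr6:17988940-18030585, minus strand.

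Wnt11, a ligand of the polarity branch, stood at 0.733 and 1.012 FPKM in A-LMSCs, 1.22 and 1.29 in PM-LMSCs and 1.42 and 1.77 in M-LMSCs, again with no overlap between stages. Its A-LMSC mean was 0.873 FPKM, so Wnt11 too passed the filter only through the later stages. Over both later stages Wnt11 was not called (log2 fold change 0.37, limma adjusted p = 0.305). The ligands most abundant in A-LMSCs gave no such order. Wnt9a, which acts in joint formation, was at 5.08 and 6.55, 5.39 and 6.84, and 4.82 and 5.85 FPKM, and Wnt5a, the main polarity ligand of the developing lung, at 5.81 and 4.64, 4.99 and 4.35, and 6.45 and 4.01. The stages of both overlapped in every comparison. All 19 ligands summed to 16.8 and 16.8 FPKM in A-LMSCs, 20.9 and 21.05 in PM-LMSCs and 23.3 and 24.2 in M-LMSCs.

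The remaining 13 ligands were scarce. Wnt10b reached 0.431 FPKM, Wnt5b 0.502, Wnt10a 0.262 and Wnt16 0.122 in their highest libraries. Wnt7b, an epithelial ligand of the lung, measured 0.0326 and 0.0388 FPKM in A-LMSCs, 0.0767 and 0.0428 in PM-LMSCs and 0.233 and 0.273 in M-LMSCs, but from only about 3 to 22 fragments. In the limma fit with no filter its adjusted p was 0.134 between A-LMSCs and M-LMSCs.

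**Figure D2:**
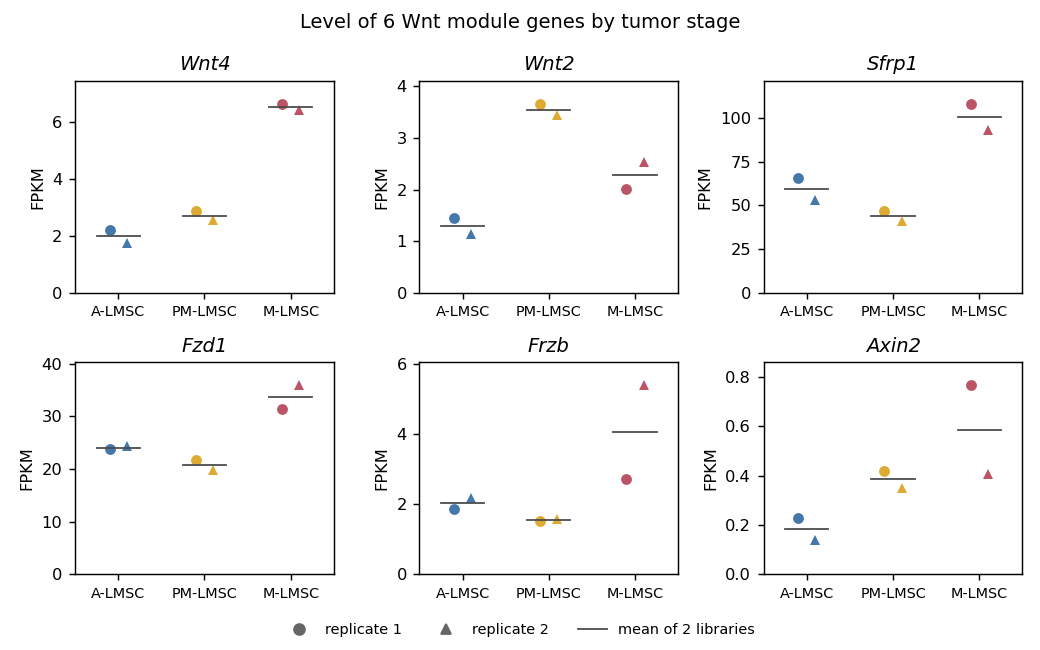
FPKM (vertical axis) of 6 members at the 3 stages (horizontal axis), with 1 point per library, n = 2 per stage. Wnt4 was at 6.66 and 6.45 FPKM in M-LMSCs against 2.23 and 1.74 in A-LMSCs.

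Frizzled receptors were the largest class by level, at 144 and 142.1 FPKM summed in A-LMSCs, 134 and 120 in PM-LMSCs and 146 and 148 in M-LMSCs, and Fzd1, Fzd2 and Fzd7 together made 76.6% to 80.7% of that sum. Fzd1 stood at 23.8 and 24.3 FPKM in A-LMSCs, 21.6 and 19.9 in PM-LMSCs and 31.4 and 35.9 in M-LMSCs, so both M-LMSC libraries lay above the other 4. Its log2 fold change in M-LMSCs was 0.47 against A-LMSCs (limma adjusted p = 0.155) and 0.67 against PM-LMSCs (0.192). Fzd2 was at 58.7 and 56.1, 50.4 and 45.8, and 44.4 and 54.2 FPKM, lower in all 4 later libraries. Over both later stages Fzd2 was not called (log2 fold change -0.24, limma adjusted p = 0.492). Fzd8 measured 8.14 and 8.40 FPKM in A-LMSCs against 5.62 and 4.95 in PM-LMSCs and 6.34 and 6.47 in M-LMSCs. The log2 fold change was -0.56 in PM-LMSCs (limma adjusted p = 0.324) and -0.44 over both later stages (0.206).

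Fzd6, a receptor of tissue polarity, was at 7.34 and 8.61, 8.68 and 9.43, and 10.3 and 10.2 FPKM, so each stage lay above the one before. Over both later stages Fzd6 was not called (log2 fold change 0.25, limma adjusted p = 0.453). Fzd4, which also binds norrin, was at 9.52 and 8.65, 9.68 and 10.4, and 11.1 and 8.505. Fzd7 and Fzd5 (1.87 to 3.02 FPKM) overlapped between all stages. Of the 3 frizzleds under 1 FPKM, Fzd3 reached 0.992 and Fzd9 0.753, while Fzd10 stayed under 0.1. The co-receptor Lrp6 stood at 3.13 and 2.90 FPKM in A-LMSCs, 4.39 and 3.41 in PM-LMSCs and 4.85 and 3.85 in M-LMSCs, above A-LMSCs in all 4 later libraries. Over both later stages Lrp6 was not called (log2 fold change 0.34, limma adjusted p = 0.425). Lrp5 was at 3.23 and 3.63, 3.55 and 4.28, and 3.31 and 4.70 FPKM, with stages that overlapped.

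Rspo3 supplied most R-spondin, at 34.2 and 33.7 FPKM in A-LMSCs, 33.0 and 30.0 in PM-LMSCs and 38.3 and 34.5 in M-LMSCs, which was 62.7% to 86.4% of the R-spondin sum. Rspo1 was at 5.32 and 7.59, 8.58 and 14.7, and 6.84 and 20.3 FPKM, so replicate 2 was higher at every stage and only PM-LMSCs were clear of A-LMSCs. Its log2 fold change in PM-LMSCs was 0.73 (limma adjusted p = 0.859), and 0.38 to 1.09 when any library was left out. Rspo2 was under 1 FPKM and reached 0.223. Among their receptors, Lgr4 was at 3.64 and 2.98, 4.57 and 3.32, and 4.83 and 2.92 FPKM and overlapped throughout. Lgr6 measured 0.909 and 1.47 FPKM in A-LMSCs, 2.46 and 2.52 in PM-LMSCs and 1.68 and 1.25 in M-LMSCs, highest at the pre-metastatic stage, with a log2 fold change of 0.69 there (limma adjusted p = 0.444). Lgr5, a stem cell marker of the gut, was nearly absent, at 0.0108 and 0.0129, 0.0255 and 0.0190, and 0.0501 and 0.0636 FPKM.

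Rspo1 is also made by mesothelium, and mesothelial markers varied with it. The 10 markers, which include Rspo1, summed to 128 and 190 FPKM in A-LMSCs, 310 and 439 in PM-LMSCs and 210 and 527 in M-LMSCs, and the most abundant was Upk1b (63.8 and 95.02, 167 and 221, 106 and 257). Of the 9 tested limma called 0 higher in the fit of all libraries. An unadjusted p below 0.05 was reached by 6.53%, 14.6% and 11.2% of all tested genes in PM-LMSCs, M-LMSCs and over both later stages. Of the 9 markers, 7, 6 and 7 were higher at that p, with Rspo1 itself in none of these counts. Krt19 went the other way, at 13.8 and 17.3 FPKM in A-LMSCs, 8.09 and 9.28 in PM-LMSCs and 4.92 and 4.49 in M-LMSCs, and was called lower in M-LMSCs (log2 fold change -1.53, limma adjusted p = 0.0395, 0.00955 with the block) and over both later stages (-1.15, 0.0454, 0.0114 with the block). Both calls on Krt19 were lost without A-LMSC replicate 1 (0.0978 and 0.197), A-LMSC replicate 2 (0.267 and 0.492), PM-LMSC replicate 1 (0.119 and 0.252) or PM-LMSC replicate 2 (0.120 and 0.183) and with no filter (0.119 and 0.143). The first was also lost with only the stages compared (0.121) and the second with quantile normalization (0.0514) and median centring (0.0512), while the log2 fold changes stayed between -1.70 and -0.998. With the block limma called 3 of the others higher in PM-LMSCs, 6 in M-LMSCs and 7 over both later stages. Of all tested genes the block called 0.292%, 3.92% and 2.05%, in either direction. Msln was called in PM-LMSCs without M-LMSC replicate 1 (0.0415) or 2 (0.0452) and with only the stages compared (0.0430). Without M-LMSC replicate 1 limma also called Lrrn4, Msln, Upk1b and Wt1 higher in M-LMSCs, and these and Krt18 over both later stages, at adjusted p values from 0.0134 to 0.0487. None of the 10 was listed at 0 in all libraries, and their part in the result was not tested.

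Sfrp1 made up almost all RNA of the antagonists that bind Wnts. It stood at 65.6 and 53.1 FPKM in A-LMSCs, 46.7 and 41.1 in PM-LMSCs and 108 and 93.3 in M-LMSCs, which was 93.5% to 97.2% of the sum of these 6 genes. The 3 stages did not overlap: PM-LMSCs were lowest and M-LMSCs highest. Means were 59.4 ± 8.87, 43.9 ± 3.995 and 101 ± 10.5 FPKM (SD, n = 2), and the M-LMSC mean was 1.70-fold the A-LMSC mean and 2.29-fold the PM-LMSC mean. The log2 fold change was 1.18 from PM-LMSCs to M-LMSCs (standard error 0.15, limma adjusted p = 0.0961, 0.0164 with the block) and 0.76 from A-LMSCs to M-LMSCs (standard error 0.15, 0.114, 0.0175 with the block). Same-numbered libraries differed by 1.19 and 1.16 in the first comparison and by 0.71 and 0.80 in the second. Over all alternatives the adjusted p values ran from 0.0164 to 0.459 and from 0.0175 to 0.657. Sfrp1 is ENSMUSG00000031548 at chr8:23411502-23449632, plus strand.

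Frzb, first known from cartilage, had the same order of stages at a far lower level, with 1.86 and 2.20 FPKM in A-LMSCs, 1.52 and 1.59 in PM-LMSCs and 2.74 and 5.41 in M-LMSCs. The 2 M-LMSC libraries were well apart from each other. The log2 fold change of M-LMSCs was 0.70 against A-LMSCs (limma adjusted p = 0.274) and 0.94 against PM-LMSCs (0.357), and without M-LMSC replicate 1 both were called (0.0342 and 0.0435). Without M-LMSC replicate 2 they came down to 0.31 (0.280) and 0.55 (0.244), and over all alternatives the adjusted p values ran from 0.0342 to 0.836 and from 0.0435 to 0.742. Sfrp2 was at 0.0850 and 0.0607, 0.264 and 0.201, and 0.257 and 0.769 FPKM, and Sfrp4 was listed at 0 in 3 libraries and reached 0.309 in M-LMSC replicate 2. Wif1 was listed at 0 in 3 libraries and at most at 0.0141 in the others.

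Among the dickkopfs, Dkk3, a divergent member of the family, measured 14.0 and 15.0 FPKM in A-LMSCs, 11.7 and 11.9 in PM-LMSCs and 13.2 and 12.7 in M-LMSCs, lower in all 4 later libraries. Over both later stages Dkk3 was not called (log2 fold change -0.22, limma adjusted p = 0.444). Dkk2 was at 5.06 and 5.03, 4.58 and 4.15, and 6.92 and 2.23 FPKM, and its M-LMSC libraries lay on opposite sides of A-LMSCs. Dkk1 stayed under 0.1 FPKM.

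Axin2, the usual readout of beta-catenin activity, was below 1 FPKM in every library. It stood at 0.229 and 0.140 FPKM in A-LMSCs, 0.417 and 0.351 in PM-LMSCs and 0.766 and 0.407 in M-LMSCs, so all 4 later libraries lay above A-LMSCs, from about 13 to 70 fragments by the length of all its exons. The M-LMSC mean was 3.18-fold the A-LMSC mean. In the limma fit with no filter the log2 fold change was 0.41 in M-LMSCs (adjusted p = 0.324) and 0.32 over both later stages (0.496), smaller than the ratio of means because 1 is added to values below 1 FPKM. Axin2 is ENSMUSG00000000142 at chr11:108920349-108950783, plus strand.

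Genes that act around the ligands and receptors were called only when replicates were blocked or a library was left out. Of 21 genes of Wnt secretion and extracellular control, 13 were tested and limma called 0 in any comparison. At an unadjusted p below 0.05 were 2 in PM-LMSCs and 5 in M-LMSCs against A-LMSCs, 4 between them and 3 over both later stages. Of all tested genes 6.53%, 14.6%, 8.94% and 11.2% reached that p in the same order. Against A-LMSCs the 13 had a median log2 fold change of 0.08 for PM-LMSCs and 0.26 for M-LMSCs, beside 0.01 and 0.03 for all genes. Their median was 0.21 between M-LMSCs and PM-LMSCs and 0.17 over both later stages. The glypican Gpc4 was most abundant (117 to 146 FPKM), the ligand carrier Wls was at 35.1 and 36.2, 35.5 and 33.2, and 46.3 and 39.5 FPKM, and Cthrc1, which favours the polarity branch, at 27.4 and 28.2, 22.3 and 21.8, and 28.1 and 33.4. The sulfatases that trim heparan sulfate were called only with the block: Sulf1 at 17.8 and 13.8, 18.0 and 19.0, and 26.4 and 22.6 FPKM (M-LMSCs against A-LMSCs, limma adjusted p = 0.156, 0.0497 with the block) and Sulf2 at 7.30 and 7.08, 10.5 and 11.1, and 10.5 and 9.78 (both later stages, 0.182, 0.0499 with the block). Sost was listed at 0 in all libraries.

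Of 17 co-receptors and polarity genes 7 were tested, with 0 called by limma. In the order above 1, 3, 3 and 2 were at an unadjusted p below 0.05, beside 6.53%, 14.6%, 8.94% and 11.2% of all tested genes. Median log2 fold changes of the 7 were -0.12 in PM-LMSCs, 0.07 in M-LMSCs, 0.19 between them and 0.04 over both later stages. Ror1, a receptor kinase that binds Wnt5a, measured 5.29 and 5.26 FPKM in A-LMSCs, 5.99 and 5.66 in PM-LMSCs and 9.91 and 8.47 in M-LMSCs, a log2 fold change of 0.70 (limma adjusted p = 0.0981, 0.0250 with the block). Ryk (28.1 to 37.5 FPKM), Ptk7 (21.5 to 29.1) and Daam1 (6.08 to 7.38) were the most abundant of the others. Of 31 genes of intracellular transduction 24 were tested, and limma called 0 with or without the block. At an unadjusted p below 0.05 were 0, 2, 0 and 2 of the 24, beside the same shares of all genes. Their medians were 0.00, 0.00, 0.08 and 0.00 in the same order, with beta-catenin itself, Ctnnb1, at 57.7 and 52.0, 58.4 and 53.1, and 70.3 and 60.6 FPKM, Csnk1d at 29.9 to 33.1 and Gsk3a at 24.7 to 31.6.

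Of 22 targets of the beta-catenin branch, all present in the table, 13 were tested, with 0 called by limma and medians of -0.08, 0.02, -0.16 and -0.06. At an unadjusted p below 0.05 were 0, 5, 3 and 3, beside 6.53%, 14.6%, 8.94% and 11.2% of all tested genes. The 5 were 2 higher and 3 lower, and both sets of 3 were 2 higher and 1 lower. Nkd2, a feedback inhibitor, was at 2.71 and 2.31, 2.34 and 2.30, and 6.86 and 4.51 FPKM, with a log2 fold change of 0.91 in M-LMSCs against A-LMSCs (limma adjusted p = 0.118, 0.0250 with the block, 0.0484 without M-LMSC replicate 2, when it was also called against PM-LMSCs at 0.0486). Over all alternatives these adjusted p values ran from 0.0250 to 0.657 and from 0.0486 to 0.575. Fosl1, a subunit of AP-1, was at 32.9 and 31.1, 31.0 and 29.3, and 19.9 and 19.5 FPKM, lower in M-LMSCs by a log2 fold change of -0.68 (limma adjusted p = 0.0875, 0.0218 with the block). Wisp2 (189 to 234 FPKM), Ccnd1 (50.2 to 83.2) and Id2 (29.3 to 46.9) were the most abundant of the others.

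Markers of mesenchymal cells dominated all libraries, but other lineages were not level across stages. All 15 stromal markers were tested and summed to 2969 and 2904 FPKM in A-LMSCs, 2536 and 2904 in PM-LMSCs and 2842 and 3926 in M-LMSCs, with Col1a1 the most abundant. In the fit of all libraries limma called 0 of them. At an unadjusted p below 0.05 were 3 in PM-LMSCs and 3 in M-LMSCs against A-LMSCs, 6 between M-LMSCs and PM-LMSCs and 5 over both later stages. Of all tested genes 6.53%, 14.6%, 8.94% and 11.2% reached that p, which also stand beside the smooth muscle counts below. All 6 markers between M-LMSCs and PM-LMSCs, where Sfrp1 and Wnt4 were called with the block, were higher in M-LMSCs. The median log2 fold change of the 15 was 0.39 there. With the block limma called Dcn (66.4 and 50.7, 57.6 and 68.6, 117 and 141.2 FPKM, adjusted p = 0.0239) and Lum (0.0419) as higher in M-LMSCs against A-LMSCs, and neither in the fit of all libraries without it (0.0875 and 0.118). Dcn was also called there without M-LMSC replicate 1 (0.0487), and Lum without A-LMSC replicate 1 (0.0297). Lum was further called against PM-LMSCs without A-LMSC replicate 1 (0.0241) or 2 (0.0265) and with only the stages compared (0.0265), beside 0.217 in the fit of all libraries. The 9 smooth muscle and pericyte markers, of which 8 were tested, summed to 9687 and 9659, 9514 and 10063, and 8593 and 8589 FPKM, led by Acta2. In the fit of all libraries limma called 0 of them without the block (3, 2, 2 and 4 at an unadjusted p below 0.05, in the same order of comparisons), and Cspg4 lower with it in M-LMSCs against A-LMSCs (0.0250) and PM-LMSCs (0.0473), as it also did without M-LMSC replicate 2 (0.0484 and 0.0468). Des stood at 141.7 and 153 FPKM in A-LMSCs, 311 and 299 in PM-LMSCs and 147 and 225 in M-LMSCs. In PM-LMSCs against A-LMSCs its log2 fold change was 1.05 (limma adjusted p = 0.315, 0.0609 with the block), called without M-LMSC replicate 1 (0.0291) or 2 (0.0305) and with only the stages compared (0.0298). Des was also called over both later stages without M-LMSC replicate 1 (0.0205, 0.239 with all libraries) and lower in M-LMSCs against PM-LMSCs without M-LMSC replicate 2 (0.0486, 0.367 with all libraries).

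Blood cell markers, measured after the removal of CD45-positive cells, were highest in the metastatic stage, where Wnt4 and Sfrp1 were also highest. The 14 haematopoietic markers summed to 132 and 124 FPKM in A-LMSCs, 169 and 74.6 in PM-LMSCs and 404 and 291 in M-LMSCs. Most of this was Lyz2 (115 and 106, 147 and 60.6, 362 and 250 FPKM), Ly6g was listed at 0 in all libraries and Ptprc, the gene of CD45, was at 0.0254 to 0.0987. Of the 6 tested limma called 0, although all 6 reached an unadjusted p below 0.05 in M-LMSCs against each other stage. Of all tested genes 14.6% reached that p against A-LMSCs and 8.94% against PM-LMSCs. With the block 5 of the 6 were called higher in M-LMSCs against A-LMSCs, 2 against PM-LMSCs and 1 over both later stages. Of all tested genes the block called 3.92%, 0.418% and 2.05%, in either direction. The 15 epithelial markers, 0 of which were tested, summed to 0.461 and 1.68, 1.10 and 0.925, and 2.78 and 4.31 FPKM. Krt14 was the most abundant, Csn2 was listed at 0 in all libraries, and Epcam was listed at 0 in all but M-LMSCs (0.326 and 0.473). The 8 endothelial markers summed to 1.77 and 1.74, 1.75 and 1.77, and 3.01 and 2.74 FPKM, and none was listed at 0 in all libraries. Their 1 tested gene and most abundant, Kdr, was called by limma in M-LMSCs against A-LMSCs only with the block (adjusted p = 0.0285, 0.0998 without). For all of these lists, their part in the result was not tested.

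Ligands with all 4 later libraries above both A-LMSC libraries were also read at their promoters, where letters bound by the TCF and LEF factors of the beta-catenin branch would stand. The letters CTTTGAT or their reverse ATCAAAG were searched in the 250 bases upstream of the annotated start. They were found in 2 of 35 windows of 32 members, those of Wnt11 and Wnt5b, and in 1053 of 32851 windows genome-wide (3.21%). The other 17 members had no window in the set used. G and C made up a median of 66.8% of the bases in member windows and 52.4% in all windows, so the 2 rates are not directly comparable. Shown for Wnt11, Wnt2 and Wnt4 are the bases of these windows outside any annotated exon, 5′ to 3′ on the strand of the gene, at chr7:98834862-98835111 (plus), chr6:18030586-18030695 (minus) and chr4:137277385-137277488 (plus) of GRCm38, the window with the letters being chosen of the 2 for Wnt11. The runs of Wnt2 and Wnt4 end short of the start used for the windows, because exons of another annotation begin before it. Capitals mark the TCF and LEF letters, which do not show that a factor was bound.
Wnt11: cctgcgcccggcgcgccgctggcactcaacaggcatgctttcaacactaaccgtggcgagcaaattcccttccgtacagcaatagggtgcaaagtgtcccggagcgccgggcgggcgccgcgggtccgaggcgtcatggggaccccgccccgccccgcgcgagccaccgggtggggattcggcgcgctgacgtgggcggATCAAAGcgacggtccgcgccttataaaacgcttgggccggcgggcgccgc
Wnt2: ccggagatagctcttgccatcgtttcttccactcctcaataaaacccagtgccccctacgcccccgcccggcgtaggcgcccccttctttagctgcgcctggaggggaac
Wnt4: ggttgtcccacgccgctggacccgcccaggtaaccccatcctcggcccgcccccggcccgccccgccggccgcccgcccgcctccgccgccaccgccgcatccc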

How the data were processed

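RNA from cultured LMSCs at passage 3 was measured in 6 libraries, 2 per stage. Other libraries of the study were not analysed here. Reads were aligned by the authors with TopHat2 2.0.9 to mm10, and the values were deposited as FPKM per gene. The counting tool, its annotation and its use of strand are not given in the sources used here.

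From these values log2(FPKM + 1) was computed. Then limma 3.58.1 in R 4.3.3 was fitted to the 10279 genes whose mean reached 1 FPKM, with 1 mean per stage and eBayes with a trend. The fit was first tried on simulated, independent libraries, for both later stages against A-LMSCs only. As same-numbered libraries here deviated together, that trial does not show how the fit performs on these data. Each stage was compared with each other stage, and the mean of both later stages with A-LMSCs, with p adjusted by Benjamini-Hochberg over all tested genes. Tables were handled in Python 3.11.15 with pandas 2.3.3 and numpy 2.4.6. Alternatives were a pseudocount of 0.1, no filter, quantile normalization, median centring, only the stages compared, the replicate number as a block and each library left out in turn.

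The labels give replicate numbers but not what they stand for. Deviations from the stage means of same-numbered libraries correlated at 0.238 (A-LMSCs and PM-LMSCs), 0.307 (A-LMSCs and M-LMSCs) and 0.491 (PM-LMSCs and M-LMSCs), so the numbers were treated as a pairing, which comes from the data and not from the labels. Replicates of a stage correlated at 0.992, 0.985 and 0.977.

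Depth was estimated from 4331 protein-coding genes with 1 transcript, as the value at which low FPKM correspond to whole fragments, and 93.4% to 94.6% of values between 0.5 and 6.5 fragments then lay within 0.1 of a whole number. Of the gene identifiers 34344 were found in GENCODE M21 and 401 were not. A name was repeated for 65 names, none of a member, and was read by its first identifier. Exons of 8 members (Rspo3, Sfrp2, Axin2, Wnt11, Wnt5a, Wnt7b, Fzd5 and Fzd6) overlap exons of genes on the opposite strand, whose reads may be counted with them. With blastn 2.17.0, 0 members matched another gene on the same strand at 95% or more over 200 bases. Promoter windows were taken from RefSeq for GRCm38.p6, and runs of at least 100 bases outside exons are shown for tested ligands with all later libraries above A-LMSCs. Wnt2b left no such run.

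Members and lists were chosen with earlier results of these data known. Members whose mean reached 1 FPKM were named by role, with Axin2, Lgr5, Lgr6, Wnt2, Wnt5a and Wif1 at any level. Those called with or without the block, those whose stages did not overlap and the most abundant of each role were given in full. Scarcer members were named from 0.1 FPKM in any library. Of each pathway list, genes called with or without the block were named, up to 5 by the size of the change over both later stages, and up to 3 others by mean FPKM. Ccnd1, Ptprc, Epcam and other markers come from the lists of cell type markers and targets (Wisp1 and Wisp2 had also been listed as Ccn4 and Ccn5, names the table does not use), of which 1 marker is not reported here. Sost, Fzd10 and Dkk1 fall outside the rule and were chosen after their values were seen.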

Additional observations from a re-analysis of the deposited data

Results flagged for a closer look

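Sfrp1, Rspo3, Fzd1 and Frzb went to opposite sides of the adenoma stage: the PM-LMSC libraries were both below the 2 of A-LMSCs, and the M-LMSC libraries both above. The log2 fold changes of M-LMSCs against PM-LMSCs were 1.18 for Sfrp1, 0.20 for Rspo3, 0.67 for Fzd1 and 0.94 for Frzb. As the genes were picked for this order of libraries, a difference between those stages was built in. Its limma adjusted p values were 0.0961, 0.662, 0.192 and 0.357 in that order, and 0.0164, 0.372, 0.0663 and 0.0941 with the replicate block. PM-LMSCs against A-LMSCs were called for none of the 4 (0.652, 0.896, 0.844 and 0.892, with the block 0.137, 0.691, 0.484 and 0.626), and M-LMSCs against A-LMSCs only for Sfrp1 with the block (0.0175, and 0.114 without it, beside 0.698, 0.155 and 0.274 for the others) and for Frzb without M-LMSC replicate 1 (0.0342). Of all tested genes 296 (2.88%) had the 2 later stages on opposite sides of A-LMSCs in this way, in either direction. Groups of 2 libraries were too small to ask whether a library stood apart from its group.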

How the results depend on the processing

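The 50 fold results given are the called pairs of member and comparison and those whose libraries did not overlap, so leaving out a library could not turn their sign. Over 12 alternatives, 573 of 591 of their values kept their direction and their side of the threshold, 7 became weaker, 11 stronger and 0 reversed. The 7 were all Wnt4 between A-LMSCs and M-LMSCs. Of all 92 pairs of a tested member and a comparison, 27 changed sign in some alternative. Counts are given below for PM-LMSCs against A-LMSCs, M-LMSCs against A-LMSCs, M-LMSCs against PM-LMSCs and both later stages against A-LMSCs, where the fit with all libraries called 4, 7, 3 and 13 genes, 0, 1, 0 and 0 members and 0 listed Wnt pathway genes in each.

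With the replicate block as pairing, 30, 403, 43 and 211 genes, 1, 2, 2 and 2 members and 0, 4, 0 and 1 pathway genes were called. It changed no other call on a member or a listed pathway gene. With no filter 1, 3, 3 and 0 genes were called, and with only the stages compared 21, 1 and 4, which gives no value for both later stages. Median centring lowered the last count to 7. In M-LMSCs against A-LMSCs 0 members were called with a pseudocount of 0.1, with no filter and with only the stages compared. Quantile normalization left all counts within 1.5 times. The cause was not tested, except that no filter adjusts over more genes and the stages alone leave fewer libraries.

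Leaving out each library in turn called 1 to 28, 1 to 90, 2 to 25 and 0 to 93 genes, 0 to 0, 0 to 2, 0 to 1 and 0 to 3 members, and 0 to 0, 0 to 1, 0 to 1 and 0 to 0 pathway genes. A stage left with 1 library was assumed to vary like the others.

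With 2 libraries per stage, a p that misses the threshold does not show that stages are alike. Members under 1 FPKM rest on few fragments, such as 3 to 22 for Wnt7b, and depth is itself an estimate.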
